A study of Homo sapiens with 9 samples.

Results

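Keratins, cadherins and the transcription factors of the epithelial-mesenchymal transition (EMT) were followed as a set of 10 genes among the 58721 genes counted in each library. The set holds the simple-epithelium keratins KRT8 and KRT18, the cadherins CDH1 and CDH2, the intermediate filament gene VIM, the tight junction gene CLDN1 and the transcription factors SNAI2, ZEB1, ZEB2 and TWIST1. Members were found by matching the versioned Ensembl identifiers of the count tables to these symbols in GENCODE release 29, and all 10 were found. Of the 10, 9 passed the filter on low counts and were among the 16441 genes tested. The exception was CDH1, with 9 reads in all 9 libraries together.

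H1299 cells are a long-established line grown from a human non-small cell lung cancer. The 3 groups of H1299 cells were profiled by sequencing of total RNA, with 3 libraries each. The control group was kept in serum free medium. The siCLOCK group was treated with small interfering RNA against CLOCK, the transcription factor at the core of the circadian clock, and the melatonin group with 0.1 mM melatonin, the night hormone of the pineal gland. The labels name no non-targeting siRNA control and no treatment time, and do not say whether the libraries of a group came from separate cultures, so each p-value rests on the spread among these libraries, which may be technical.

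In the epithelial-mesenchymal transition, epithelial cells lose their cell-cell junctions and gain motility. E-cadherin (CDH1) holds epithelial cells together at adherens junctions, claudins seal tight junctions, and keratins 8 and 18 pair to form the filaments of simple epithelia. Snail, ZEB and TWIST factors repress CDH1 and other epithelial genes, while N-cadherin (CDH2) and vimentin (VIM) mark the mesenchymal state. Many carcinoma lines keep keratins while expressing vimentin.

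Libraries held 15384539 to 19192962 reads assigned to genes. CLOCK, the targeted gene, stood at 51.5%, 78.7% and 93.8% of the control mean in the libraries labelled siCLOCK replicates 1, 2 and 3, and its log2 fold change of -0.42 (SE 0.14, adjusted p = 0.34) missed the threshold. Here and below, adjusted p-values come from the quasi-likelihood test of edgeR with Benjamini-Hochberg adjustment over all genes tested, and 0.05 is the threshold. The library labelled siCLOCK replicate 3 goes against its label, since the control libraries stood at 94.9% to 109%, and it also shared technical values with the melatonin libraries. Unmapped reads made up at least 2.24% and reads in processed pseudogenes at least 0.314% in these 4 libraries, against at most 1.36% and 0.172% in the other 5. The 2 sets of libraries divide at 1.8% unmapped reads. All control libraries lie in the first set and all melatonin libraries in the second, so within neither set can melatonin be compared with control, and the labels do not say what the sets are. Results are given with a term for the set, which rests on the siCLOCK libraries alone, or without the library labelled siCLOCK replicate 3, where these change a call. The term is set by how that library differs from the other siCLOCK libraries, which had less CLOCK. A technical difference and a difference in knockdown cannot be told apart in it. Values of melatonin against control with the set term therefore also carry differences among the siCLOCK libraries. The markers of the tissue were checked as well. Of 8 lung epithelial markers, 6 had under 10 reads in every library, among them EPCAM with 4 to 9 reads and SFTPA1 and SCGB1A1 at 0. All 5 leukocyte markers, 3 of 5 fibroblast and 3 of 5 endothelial markers were also under 10 reads in every library. The summed level of the lung epithelial markers was 1.963 to 2.38 CPM (counts scaled to a fixed library total after TMM, the trimmed-mean scaling of edgeR) in control, 1.68 to 2.36 CPM in siCLOCK and 2.40 to 2.48 CPM in melatonin libraries. The fibroblast sum was 2.69 to 3.66, 2.43 to 2.83 and 2.40 to 2.84 CPM in the same order, the endothelial sum 3.18 to 4.04, 3.35 to 5.53 and 2.77 to 3.53 CPM, and the leukocyte sum at most 0.315 CPM. Among the fibroblast markers the mean level of COL1A1 was 2.17 CPM in control and 1.13 CPM in melatonin libraries, and that of DCN 0.81 and 1.17 CPM. For the lung epithelial sum the lowest melatonin library, 2.398 CPM, was barely above the highest control library, 2.382 CPM. Its markers did not move together. From control to melatonin NAPSA went from 0.94 to 1.32 CPM, NKX2-1 from 0.82 to 0.71 CPM and EPCAM from 0.38 to 0.29 CPM. Their part in the results was not tested.

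Sequences are shown for some members only: an exon of VIM, where the genome itself touches the count, and promoter windows of VIM, CLDN1 and ZEB1. VIM lies on the plus strand at chr10:17228259-17237593 (GRCh38), and antisense genes on the minus strand, VIM-AS1 and AL133415.1, overlap its exons. Of the 2135 bases of its main transcript, 983 (46%) lie under either of them. Exon 5 of this transcript, at chr10:17233770-17233931 on the plus strand, is printed because most of it is such a stretch. Its capitals mark the 129 bases, chr10:17233770-17233898, that also belong to an exon of AL133415.1. A read from these bases has 2 possible owners when strand is not recorded.
VIM exon 5: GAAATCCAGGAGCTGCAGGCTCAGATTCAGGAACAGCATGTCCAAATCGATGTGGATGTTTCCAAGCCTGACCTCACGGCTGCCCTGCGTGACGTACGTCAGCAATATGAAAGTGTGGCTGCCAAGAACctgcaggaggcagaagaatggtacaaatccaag

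Promoter sequence, taken from RefSeq with GRCh38.p14 coordinates, was found for 6 members in 13 windows of 220 bases, each running from 250 to 31 bases before a transcript start. KRT18, CDH1, SNAI2 and TWIST1 had no entry. The windows of 3 genes are printed: those of VIM and CLDN1, which fell with melatonin, and 1 of ZEB1, which did not pass. Capitals mark GGGCGG or its reverse complement, the GC box known to be bound by Sp-family factors, and CAGGTG, the E-box form bound by Snail and ZEB factors. The windows are chr10:17227991-17228210 on the plus strand for VIM, chr3:190322477-190322696 on the minus strand for CLDN1 and chr10:31318167-31318386 on the plus strand for ZEB1.
VIM promoter: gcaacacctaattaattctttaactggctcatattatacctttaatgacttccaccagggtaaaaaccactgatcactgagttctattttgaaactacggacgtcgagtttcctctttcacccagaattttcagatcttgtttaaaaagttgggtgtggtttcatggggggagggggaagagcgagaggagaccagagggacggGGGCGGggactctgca
CLDN1 promoter: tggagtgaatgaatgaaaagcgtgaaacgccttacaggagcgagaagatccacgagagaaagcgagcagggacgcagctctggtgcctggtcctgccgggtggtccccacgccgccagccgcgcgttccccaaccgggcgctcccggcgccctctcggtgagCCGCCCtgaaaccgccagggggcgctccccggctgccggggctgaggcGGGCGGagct
ZEB1 promoter: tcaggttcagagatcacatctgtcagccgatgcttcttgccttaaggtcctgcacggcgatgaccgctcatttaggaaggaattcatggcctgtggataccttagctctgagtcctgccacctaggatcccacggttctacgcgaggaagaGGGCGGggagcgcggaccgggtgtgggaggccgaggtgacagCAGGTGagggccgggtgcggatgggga

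All motifs were searched on both strands, and their letters do not overlap one another in these windows. GGGCGG was in 8 of the 13 windows, covering 4 of the 6 members, against 38.9% of 35116 RefSeq promoter windows of the same length. ZEB1 has the most windows of any member and most of those with GGGCGG, so the window count does not describe the members evenly. CAGGTG was in 2 windows, both of ZEB1, against 16% of all windows. CACGTG, the E-box form bound by CLOCK and its partner, was in 0 of the 13 windows, against 5.4% of all windows. These are letter matches in a short window and nothing is drawn from them about the factors.

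In the control libraries the set had the profile of a cell with much vimentin and keratin and almost no E-cadherin. Levels between genes were compared in CPM per kilobase of the main transcript, the scale of every value in this paragraph. VIM was highest at 868 ± 70.0 (SD, n = 3), followed by KRT18 at 172 ± 16.8 and KRT8 at 77.1 ± 9.999. ZEB1 (13.0 ± 0.53), CDH2 (10.7 ± 0.75), CLDN1 (9.24 ± 0.24) and TWIST1 (8.66 ± 1.17) formed a middle group. Within it only CLDN1 and TWIST1 overlapped between control libraries (8.96 to 9.41 and 7.51 to 9.84), so their order is not resolved. ZEB2 followed at 3.30 ± 0.21, SNAI2 at 0.27 ± 0.14 and CDH1 at 0.011 ± 0.011. All other neighbours in this order were separated in the control libraries, though the KRT8 and VIM levels depend on how shared reads are treated.

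**Figure D1:**
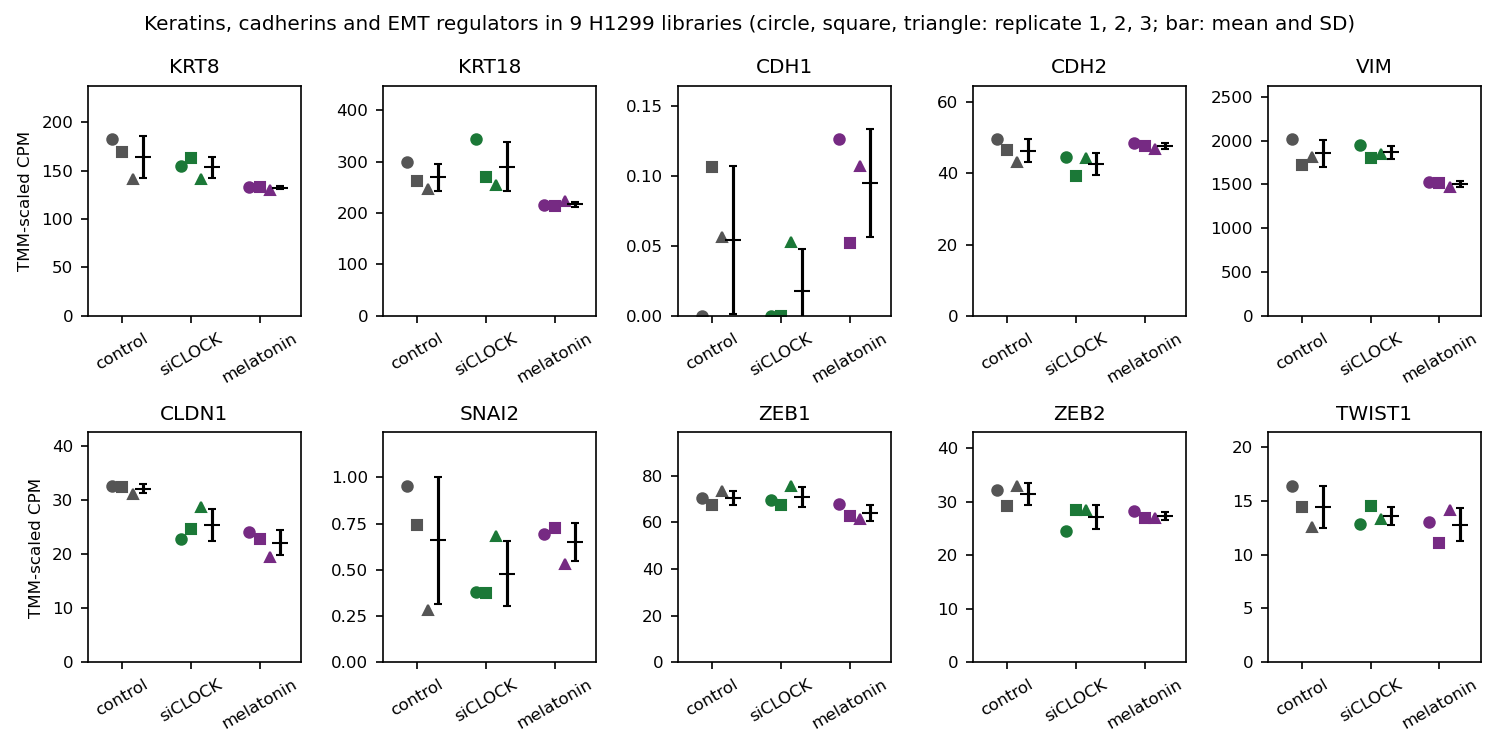
TMM-scaled CPM of the 10 genes (vertical axes, starting at 0, each with its own scale) in the control, siCLOCK and melatonin groups; circle, square and triangle are replicates 1, 2 and 3, and the bar gives the mean and SD. The melatonin libraries of KRT8, KRT18, VIM and CLDN1 all lie below the 3 control libraries, whereas CDH2, ZEB1, TWIST1 and SNAI2 overlap.

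The keratin and vimentin counts covered only part of their reads. The deposited tables give, for each gene, a count regardless of strand, in which a read lying on 2 genes is left out, and counts per strand. The unstranded count held 38.5% of the sum of both strand counts of VIM (36.6% to 41.2% per library), 41.1% of those of KRT8 (35.9% to 43.8%) and 54.7% of those of KRT18 (53.2% to 56.3%). The median over the genes tested was 99.97%, and only 5.56% of them kept a smaller share than VIM. CDH2 kept 89.6%, and ZEB1, ZEB2, TWIST1, CLDN1 and SNAI2 kept between 96.2% and 100%. Of the 4 members that fell with melatonin 3 are thus the members that kept the smallest shares.

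These members overlap other genes. KRT8 (chr12:52897187-52949954, minus strand) and KRT18 (chr12:52948871-52952901, plus strand) overlap in 525 exon bases on opposite strands. Over the 9 libraries 35579 reads were left out of KRT8 and 35578 of KRT18. For VIM 460487 reads were left out, while 219596 were left out of AL133415.1 and 177826 of VIM-AS1. AL133415.1 had 0 reads in the unstranded count in every library, and VIM-AS1 had 745 in all. The owners of the other left-out VIM reads were not traced. ZEB1, ZEB2, TWIST1 and CDH2 also have antisense neighbours, of which ZEB1-AS1 had the most reads, 118 to 198 per library in the unstranded count. Without strand, reads of VIM and of its antisense partners cannot be told apart.

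Where the left-out reads belong decides the order of the keratins. With them, KRT8 reached 183 ± 15.4 CPM per kilobase in control libraries, and KRT18 without them stood at 172 ± 16.8. The shared reads cannot be divided between these 2 genes, so their order is not resolved by these counts. VIM remained first, at 2218 ± 178 CPM per kilobase with its left-out reads, scaled to the totals of the unstranded count.

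**Figure D2:**
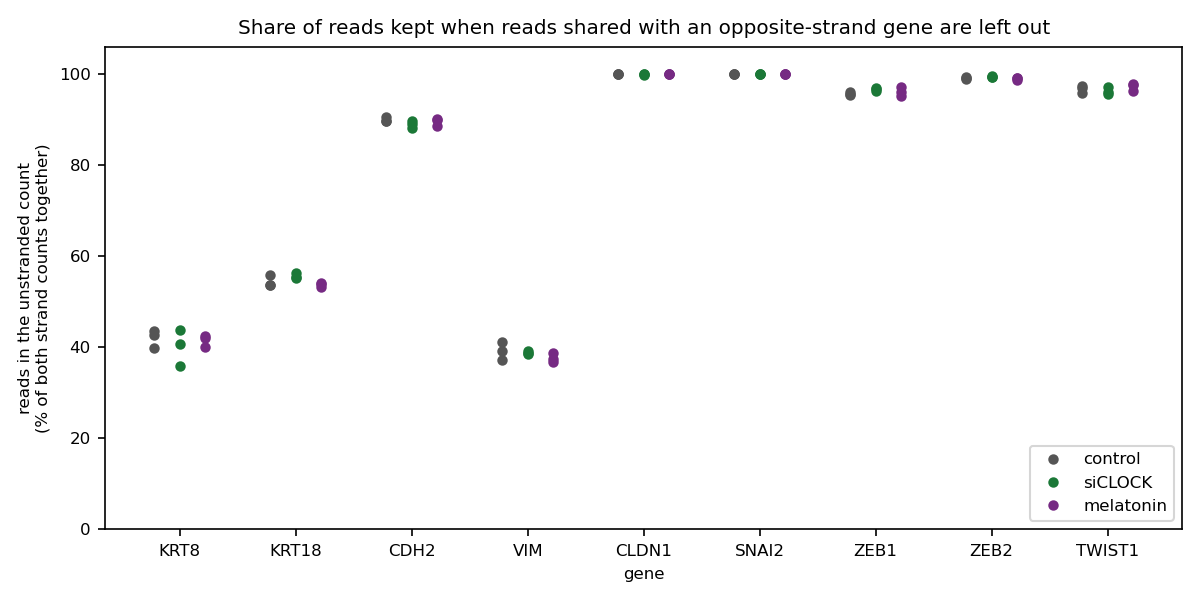
Reads in the unstranded count as a percent of both strand counts together (vertical axis) for the 9 tested genes (horizontal axis), with 1 point per library coloured by group. VIM, KRT8 and KRT18 lie between 35.9% and 56.3% in every library, and the groups of each gene lie close together.

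With melatonin, KRT8, KRT18, VIM and CLDN1 fell against control and no member rose. Of the 9 tested members 4 were lower, 0 were higher and 5 did not pass. Over all genes tested 12.1% were lower and 11.0% higher, and the median log2 fold change was -0.20 for the members and 0.01 for all genes. For 5 of the 9 members the 2 groups did not overlap, against 43.4% of all genes tested. In these bulk libraries fewer cells expressing a gene and less RNA per cell cannot be told apart. All levels from here on are TMM-scaled CPM unless another scale is named.

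KRT8, the type II keratin of simple epithelia, stood at 182, 169 and 141 CPM in control libraries 1, 2 and 3 and at 133, 133 and 130 CPM in melatonin libraries. Every melatonin library lay below every control library, and control replicate 3 was the nearest. The log2 fold change was -0.31 (SE 0.08, adjusted p = 0.0093). Without control replicate 1, the highest library, it was -0.23 and did not pass (adjusted p = 0.0736). The set term brought it to -0.14 (adjusted p = 0.611).

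KRT18, its type I filament partner, stood at 298, 263 and 247 CPM in control and at 215, 213 and 222 CPM in melatonin libraries. The groups did not overlap, and the melatonin libraries were closer together than the control libraries. The log2 fold change was -0.31 (SE 0.09, adjusted p = 0.0188). It lost its call without control replicate 1 (-0.23, adjusted p = 0.12), without melatonin replicate 1 (adjusted p = 0.0527), without melatonin replicate 2 (adjusted p = 0.062) and in strand column 4 alone (-0.24, adjusted p = 0.0656). The set term brought it to -0.04 (adjusted p = 0.906).

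Counting the shared keratin reads once gave the same separation. KRT8 and KRT18 together then held 717, 659 and 601 CPM in control libraries and 531, 528 and 548 CPM in melatonin libraries. The number of KRT18 reads per KRT8 read was 1.65 ± 0.10 (SD, n = 3) in control and 1.64 ± 0.06 in melatonin libraries (exact permutation test, two-sided, p = 0.9). Across 12 such ratio tests the smallest p that 3 against 3 libraries allow is 0.1, so none could pass 0.05.

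VIM, the intermediate filament of mesenchymal cells, stood at 2018, 1726 and 1816 CPM in control and at 1527, 1516 and 1466 CPM in melatonin libraries. All 3 melatonin libraries were lower than all control libraries. The log2 fold change was -0.30 (SE 0.06, adjusted p = 0.00251). VIM was also taken with all reads of its strand counts, scaled to the totals of those counts. This scale differs from that of the other levels, which rest on the totals of the unstranded count. On it VIM stood at 4690, 4216 and 4001 CPM in control and at 3562, 3683 and 3629 CPM in melatonin libraries. The log2 fold change was then -0.24. VIM kept its size with the set term, -0.28, but did not pass (adjusted p = 0.156). The number of VIM reads per KRT18 read was 6.89 ± 0.41 in control and 6.93 ± 0.30 in melatonin libraries (exact permutation test, two-sided, p = 0.9).

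CLDN1 (chr3:190305701-190322475, minus strand), a claudin that seals tight junctions, had the largest change of the tested members. Its levels were 32.7, 32.6 and 31.2 CPM in control and 24.1, 22.8 and 19.6 CPM in melatonin libraries. The control libraries were tightly grouped and all melatonin libraries lay below them. The log2 fold change was -0.54 (SE 0.10, adjusted p = 0.000496), a fold of 0.688. Among the members only CLDN1 also passed with the set term, at -0.81 (adjusted p = 0.00162), and it passed in every alternative run. The value with the set term also takes in the difference among the siCLOCK libraries, which stood at 22.9, 24.7 and 28.8 CPM for CLDN1.

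CDH2 (chr18:27950966-28177446, minus strand), the N-cadherin gene, did not pass. It stood at 49.6, 46.5 and 43.1 CPM in control and at 48.4, 47.6 and 46.7 CPM in melatonin libraries, which lay inside the control range. The log2 fold change was 0.04 with a 95% interval of -0.11 to 0.18 (adjusted p = 0.779). The number of CDH2 reads per CLDN1 read was 1.44 ± 0.07 in control and 2.16 ± 0.20 in melatonin libraries, with no overlap (exact permutation test, two-sided, p = 0.1, the smallest possible, 0.3 after adjustment over the 12 ratio tests). In the siCLOCK libraries this number was 1.69 ± 0.22 and did not overlap with control either (exact permutation test, two-sided, p = 0.1, adjusted 0.3).

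CDH1, the E-cadherin gene, had 0, 2 and 1 reads in control and 2, 1 and 2 reads in melatonin libraries. In the siCLOCK libraries it had 0, 0 and 1 reads. A count of 0 in control replicate 1 allows a level of up to 0.159 CPM, counting error only. No difference in CDH1 was detectable at this depth.

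None of the 4 transcription factors passed in the melatonin comparison. ZEB2 (chr2:144364364-144524583, minus strand), a zinc finger repressor of CDH1, stood at 32.2, 29.2 and 33.0 CPM in control and at 28.2, 26.9 and 26.9 CPM in melatonin libraries. Its groups did not overlap, yet it missed the threshold (log2 fold change -0.20, SE 0.08, adjusted p = 0.0882). Fitted on these 6 libraries alone it passed (-0.21, adjusted p = 0.0255).

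ZEB1 (chr10:31318495-31529814, plus strand), the related repressor, stood at 70.2, 67.5 and 73.3 CPM in control and at 68.0, 62.5 and 61.4 CPM in melatonin libraries (log2 fold change -0.14, adjusted p = 0.172). TWIST1, a basic helix-loop-helix factor, stood at 16.4, 14.4 and 12.5 CPM and at 13.1, 11.1 and 14.2 CPM (log2 fold change -0.18, adjusted p = 0.276). Both overlapped between groups. SNAI2, the Slug gene, had 18, 14 and 5 reads in control and 11, 14 and 10 reads in melatonin libraries, a log2 fold change of -0.04 with a 95% interval of -0.79 to 0.72. This interval leaves changes in either direction undetected at such counts.

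**Figure D3:**
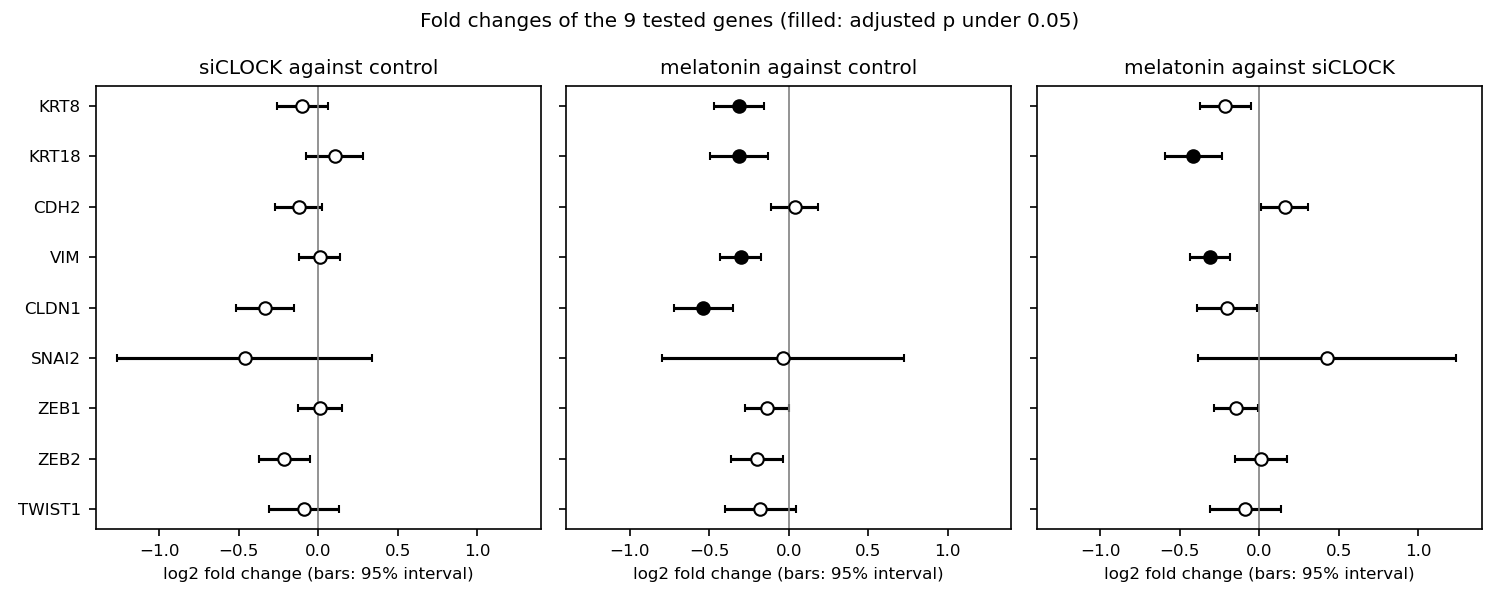
Log2 fold changes (horizontal axis) of the 9 tested genes in the 3 comparisons, with bars of the 95% interval and filled points where the adjusted p was under 0.05. Points are filled for KRT8, KRT18, VIM and CLDN1 in melatonin against control and for KRT18 and VIM in melatonin against siCLOCK, and the SNAI2 bars are the widest.

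With siCLOCK no member passed against control. This comparison shares its control libraries with the melatonin comparison. Of the 9 tested members 0 were higher and 0 lower, against 0.0547% and 0.0669% of all genes tested. By the unadjusted p under 0.05, 2 members (CLDN1 and ZEB2) and 1355 of all genes passed, and no member was called by DESeq2. The groups did not overlap for the same 2 members, against 10.8% of all genes tested. The median log2 fold change was -0.10 for the members and 0.00 for all genes.

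CLDN1 stood at 22.9, 24.7 and 28.8 CPM in the siCLOCK libraries, all below the control libraries. Its log2 fold change was -0.34 (SE 0.09, adjusted p = 0.24). Leaving out the library nearest to control, the one labelled siCLOCK replicate 3, gave -0.44, which passed (adjusted p = 0.0274). With the set term it was -0.43 (adjusted p = 0.0299). That is not a separate check, since the term takes up the same library and leaves the other siCLOCK libraries against control. With no filter on low counts CLDN1 passed at -0.34 (adjusted p = 0.0414).

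ZEB2 stood at 24.5, 28.4 and 28.5 CPM in siCLOCK libraries, below all control libraries, with a log2 fold change of -0.21 (SE 0.08, adjusted p = 0.462). ZEB1 stood at 69.4, 67.4 and 75.7 CPM, within 0.01 of control on the log2 scale (95% interval -0.13 to 0.15). The number of ZEB1 reads per ZEB2 read was 2.24 ± 0.07 in control, 2.62 ± 0.23 in siCLOCK and 2.34 ± 0.06 in melatonin libraries. Its siCLOCK and control libraries did not overlap (exact permutation test, two-sided, p = 0.1, adjusted 0.3).

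The filament genes showed no common direction with siCLOCK. KRT8 stood at 155, 163 and 142 CPM (log2 fold change -0.10, adjusted p = 0.829). KRT18 stood at 344, 270 and 255 CPM (0.10, adjusted p = 0.851), and the library labelled siCLOCK replicate 1 had the highest KRT18 level of all 9. VIM stood at 1952, 1797 and 1846 CPM, with a log2 fold change of 0.01 and a 95% interval of -0.12 to 0.14. All 3 genes overlapped with control.

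The remaining members also overlapped with control. CDH2 stood at 44.5, 39.1 and 44.3 CPM (log2 fold change -0.12, adjusted p = 0.738). TWIST1 stood at 12.9, 14.5 and 13.3 CPM (-0.09, adjusted p = 0.905). SNAI2, with 7, 7 and 13 reads, had a log2 fold change of -0.46 with an SE of 0.41 (adjusted p = 0.851).

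Set directly against siCLOCK, melatonin libraries had lower KRT18 and VIM. Of the 9 tested members 2 were lower and 0 higher, against 10.1% and 7.43% of all genes tested, and 4 did not overlap, against 34.2%. KRT18 had a log2 fold change of -0.42 (SE 0.09, adjusted p = 0.00423), and VIM of -0.31 (SE 0.06, adjusted p = 0.0029). KRT18 did not pass with the set term (-0.23, adjusted p = 0.228). KRT8, at -0.21, had an adjusted p of 0.0771. It passed in 6 of 17 alternatives: without the library labelled siCLOCK replicate 3 (-0.27, adjusted p = 0.019), with no filter (adjusted p = 0.0211), on the 6 libraries compared (0.0444), in strand column 3 (0.0247), in strand column 4 (0.032) and in summed strand columns (0.0186). CDH2 was the only gene of the 4 that lay higher in every melatonin library, with a log2 fold change of 0.16 that did not pass (adjusted p = 0.162).

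CLDN1 did not differ between the 2 treatments beyond the threshold, with a log2 fold change of -0.20 and a 95% interval of -0.39 to -0.01 (adjusted p = 0.159). ZEB1 was at -0.15 (adjusted p = 0.158), ZEB2 at 0.01, TWIST1 at -0.09 and SNAI2 at 0.43. Within the second technical set the only comparison is with 1 library, labelled siCLOCK replicate 3. It stood at 142 CPM for KRT8, 255 CPM for KRT18, 1846 CPM for VIM and 28.8 CPM for CLDN1, above all 3 melatonin libraries for each of these genes.

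**Figure D4:**
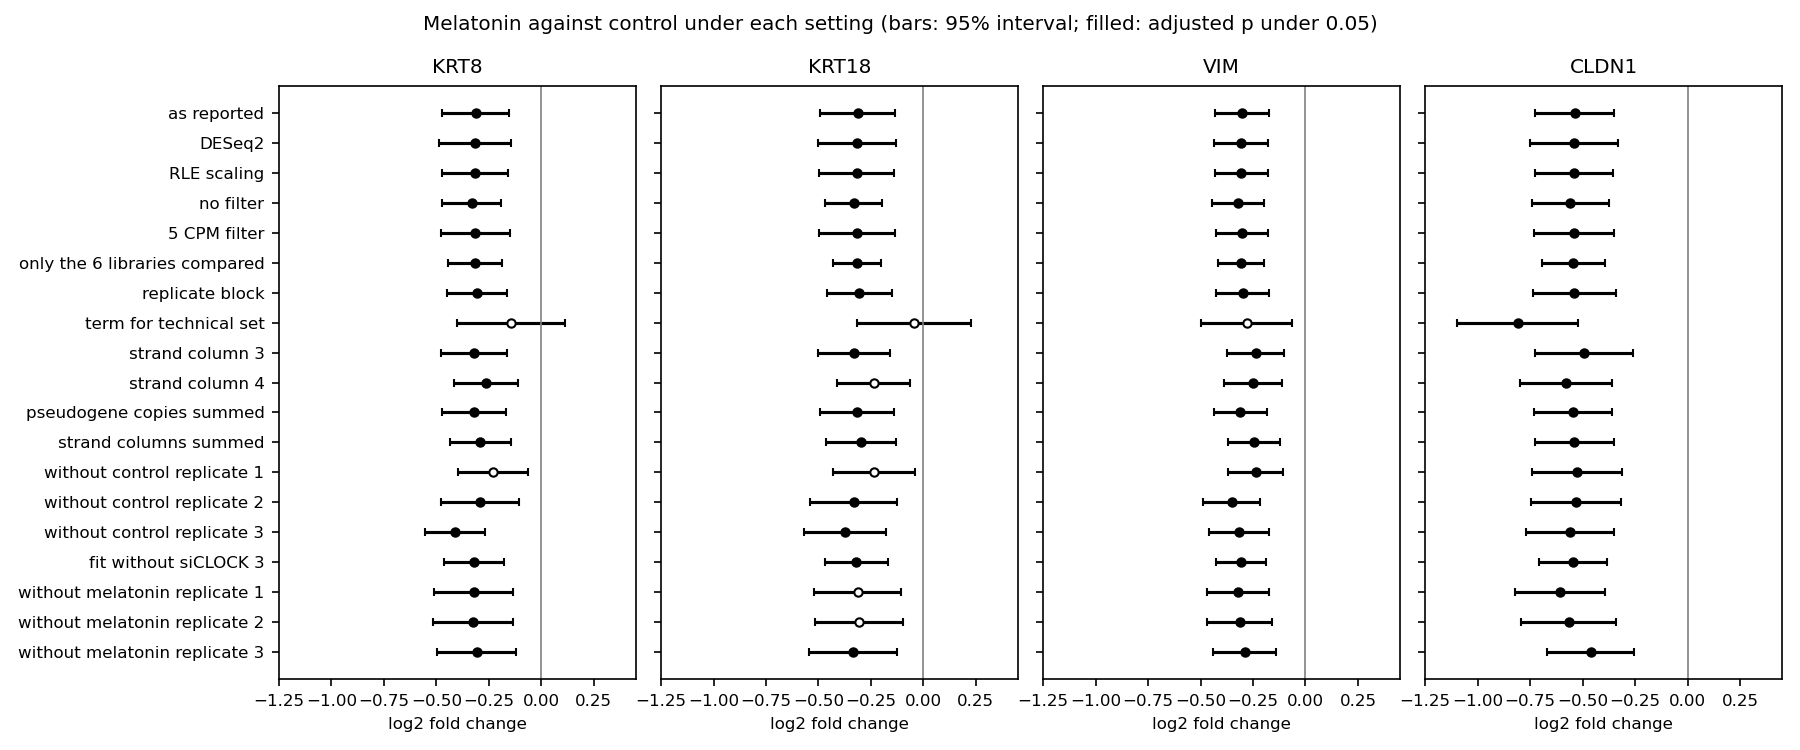
Log2 fold changes of melatonin against control (horizontal axis) for the 4 genes that fell, 1 row per setting, with bars of the 95% interval and filled points where the adjusted p was under 0.05. All points lie below 0, CLDN1 is filled in every row, and with the term for the technical set KRT8, KRT18 and VIM are open.

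Near-identical copies were looked at for the keratins, since reads can be divided between a gene and its processed pseudogenes. KRT8 has 50 such copies in the annotation, 19 of them with reads, and together they held 10.03% to 13.1% of the KRT8 count. KRT18 has 66, 32 of them with reads, which held 0.44% to 1.06%. KRT8P12 had the most, 181 to 297 reads per library, with a log2 fold change of -0.31 for melatonin against control (adjusted p = 0.0572). KRT8P33, with 6 to 22 reads, was lower (-0.95, adjusted p = 0.0431). Summing copies with their gene changed no call of a member in the 3 comparisons.

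Over the 9 libraries KRT18 and VIM varied most alike among the members, with a Pearson r of 0.88 of their log2 levels. The r was 0.78 for CLDN1 and ZEB2, 0.76 for KRT8 and VIM, and 0.74 both for KRT8 with KRT18 and for VIM with ZEB1. The highest r of CDH2 with another member was 0.0503, with TWIST1. These describe 9 libraries that share 3 treatments and 2 technical sets. Among 11161 other genes of at least 5 CPM, the 1 most like each member was TBKBP1 for KRT8 (r = 0.971), SRI for KRT18 (0.976), ZNF235 for CDH2 (0.973), GAR1 for VIM (0.976), CCDC36 for CLDN1 (0.978), AIDA for ZEB1 (0.985), CEP57L1 for ZEB2 (0.956) and MEX3D for TWIST1 (0.943). Each is the highest of 11161 values over 9 libraries, so a high r arises from the selection itself and nothing is drawn from it.

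The wider families of these genes were described through 4 lists, 125 genes in all. For siCLOCK against control 0 genes passed in each of the 4 lists with edgeR and with DESeq2. By the unadjusted p under 0.05 4 of 11 filament, 6 of 27 junction, 6 of 25 mesenchymal and 4 of 24 transcription factor genes passed, against 1355 of the 16441 genes tested. Without the library labelled siCLOCK replicate 3, 1 mesenchymal gene was higher and no other list had a call, and mesenchymal genes that were higher numbered 2 with the set term and 1 with no filter on low counts. Without control replicate 3, 1 junction gene was lower, and without the library labelled siCLOCK replicate 1, 1 mesenchymal gene was higher and 1 lower. For melatonin against control the intermediate filament list had the lowest median of the 4. Of its 23 genes 11 were tested, 7 of these fell, 1 rose and the median log2 fold change was -0.77. The counts of this and the next 3 lists stand against 12.1% lower and 11.0% higher over all genes tested. KRT80, a keratin of many epithelia, fell from 107 ± 10.7 to 55.7 ± 2.77 CPM (-0.94, adjusted p = 1.44e-07). KRT15, a basal-layer keratin, fell as well (-0.89). The nuclear lamins LMNB1 and LMNB2, which line the nuclear envelope, also fell (-0.77 and -0.69). SYNM, an intermediate filament protein that partners vimentin, was the 1 that rose (0.77, adjusted p = 7.24e-06), and was picked out after its value was seen. With the set term 4 fell and 1 rose.

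Among junction and epithelial genes 5 of 27 tested out of 43 fell, 1 rose and the median log2 fold change was -0.05. On the log2 scale the desmosomal plaque gene DSP was at -0.38, AP1M2, a sorting adaptor of polarised epithelia, at -0.68, LSR, a protein of tricellular junctions, at -0.49 and the protease inhibitor SPINT2 at -1.21. SPINT2 is a low gene, at 1.201 ± 0.27 CPM in control and 0.51 ± 0.20 CPM in melatonin libraries. CTNND1, the catenin that stabilises cadherins at the membrane, rose by 0.19 (adjusted p = 0.0258), and was picked out after its value was seen. None of these 27 passed in either direction with the set term. The rise of a junction gene was also lost with no filter, in strand column 4, and without control replicate 1, control replicate 2 or any 1 of the melatonin libraries. The number of lower genes was 2, 2 and 3 without control replicate 1, control replicate 2 or melatonin replicate 3.

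Of the mesenchymal genes and other cadherins 16 of 25 tested out of 31 fell and 2 rose, with a median log2 fold change of -0.22. The actin-bundling gene FSCN1 was at -0.49, the matrix gene TNC at -0.89 and the receptor kinase AXL at -0.38. The 2 that rose, named after their values were seen, were the integrin ITGB3 (0.39, adjusted p = 0.0343) and the matricellular gene CCN2 (0.47, adjusted p = 0.0242). With the set term 2 fell and 0 rose. No gene of the list was higher with DESeq2 or without control replicate 1, control replicate 2, melatonin replicate 2 or melatonin replicate 3, and 1 was higher in strand column 3, in strand column 4, without control replicate 3 and without melatonin replicate 1. The number of lower genes was 10, 9 and 10 without control replicate 1, control replicate 2 or melatonin replicate 3.

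Of the EMT transcription factors and corepressors 8 of 24 tested out of 28 fell and 0 rose, with a median log2 fold change of -0.12. EZH2, the histone methyltransferase of the Polycomb complex, fell from 159 ± 5.83 to 104.7 ± 2.89 CPM (-0.60, adjusted p = 1.56e-06). TCF3, an E protein that partners TWIST1, fell too (-0.47), as did the histone deacetylase HDAC2 (-0.37) and the transcription factor ETS1 (-0.55). With the set term 2 fell, and 5 fell without control replicate 1.

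Against siCLOCK, melatonin gave 1 higher and 7 lower of 11 tested filament genes, 0 and 4 of 27 junction genes, 0 and 10 of 25 mesenchymal genes and 0 and 9 of 24 EMT factors, where 7.43% of all genes tested were higher and 10.1% lower. With the set term the filament list had 1 higher and 4 lower, and the other lists had 0 higher and 0, 5 and 4 lower. The number of lower junction genes was 2, 1 and 2 without melatonin replicate 1, 2 or 3, and 5 EMT factors were lower without melatonin replicate 3.

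**Figure D5:**
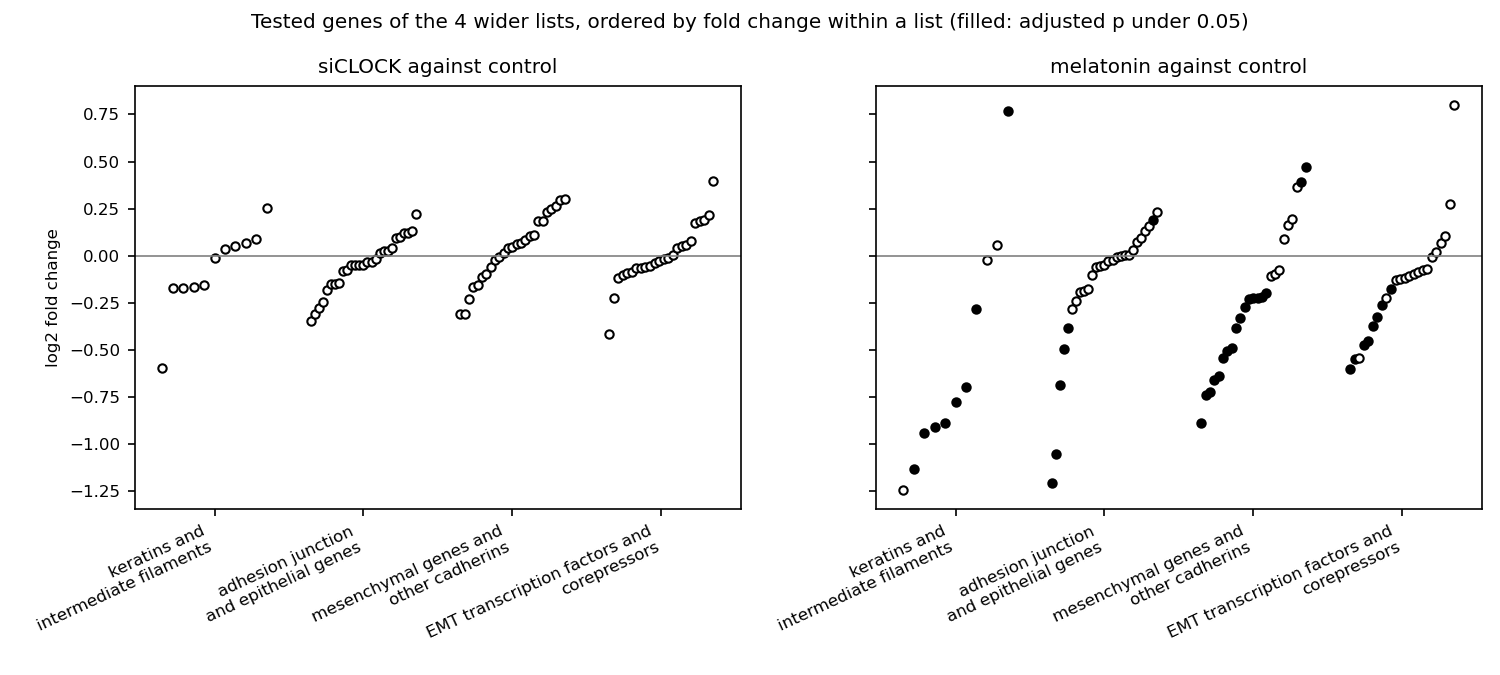
Log2 fold changes (vertical axis) of the tested genes of the 4 wider lists, ordered within each list, for siCLOCK against control (left) and melatonin against control (right), filled where the adjusted p was under 0.05. No point is filled on the left. On the right 7 of 11 filament genes and 16 of 25 mesenchymal genes are filled below 0.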

How the data were processed

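Paired-end RNA sequencing libraries of H1299 cells were read as deposited. The authors made raw counts per gene with STAR 2.7.9a on GRCh38, per the submitters' processing notes; the annotation is not given in the sources used here, and all identifiers matched GENCODE 29. The unstranded column was the main measure, and the strand columns were an alternative. The analysis used R 4.3.3. Genes were kept with filterByExpr (minimum count 10, 3 groups), libraries were scaled by TMM, and 1 edgeR 4.0.16 quasi-likelihood model over all 9 libraries gave log2 fold changes with Benjamini-Hochberg adjusted p-values over all 16441 genes (threshold 0.05). The script was tested on simulated data. Depth was 15384539 to 19192962 counts per library. Alternatives were DESeq2 1.42.0, RLE scaling, other filters, 6 libraries, a replicate block, a technical set term, strand columns, summed pseudogene copies and left-out libraries; summed strand columns and the fit without the library labelled siCLOCK replicate 3 were chosen after seeing the data. The 10 members, the lists and the tests were chosen with earlier results of these data known. Named genes were the members, up to 4 called genes per list with the smallest p in melatonin against control (any called in siCLOCK against control), the gene most alike each member of at least 5 CPM, the pseudogene copies and the overlapping genes. Of the genes this rule names, 1 is not reported here, nor is 1 marker gene.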

Additional observations from a re-analysis of the deposited data

How the results depend on the processing

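The number of lower members was 0 in siCLOCK against control and became 1 with no filter, with the term for the technical set, and in the range 0 to 1 with a library left out. In melatonin against control it was 4 and became 1 with the set term and 2 to 4 with a library left out, 2 being the value without control replicate 1. In melatonin against siCLOCK it was 2 and became 1 with the set term and 3, with KRT8, with no filter, on 6 libraries, in strand column 3, column 4 or both summed, and without siCLOCK replicate 3; the left-out range was 2 to 3. The cause was not tested. Libraries with the same replicate number showed little shared deviation from their group means, with r of -0.0923 to 0.0629. Libraries with different numbers were not compared in this way, and the labels do not say whether a number marks a shared culture. With the replicate block the counts of lower members were 0, 4 and 2. Members not called changed sign as follows in siCLOCK against control: ZEB1 was -0.040 with the set term, -0.030 in strand column 3 and -0.0030 in summed strand columns, TWIST1 was 0.051 in strand column 4, and with a library left out the ranges were -0.039 to 0.18 for KRT18, -0.040 to 0.075 for VIM, -0.046 to 0.045 for ZEB1 and -0.18 to 0.011 for TWIST1. In melatonin against control CDH2 was -0.048 with the set term, and left-out ranges were -0.015 to 0.086 for CDH2 and -0.38 to 0.32 for SNAI2. In melatonin against siCLOCK ZEB2 was -0.0060 with no filter, -0.062 with the set term and -0.060 in strand column 4, SNAI2 was -0.072 with the set term, and left-out ranges were -0.060 to 0.045 for ZEB2 and -0.17 to 0.0051 for TWIST1. Over all genes, higher and lower calls in siCLOCK against control (9 and 11) were 47 and 29 with DESeq2, 152 and 59 with no filter, 3 and 2 with the 5 CPM filter, 3 and 4 on 6 libraries, 73 and 43 with the set term, and 4 higher with the replicate block; strand columns 3 and 4 gave 3 and 7 lower, and left-out libraries 1 to 69 higher and 1 to 43 lower. In melatonin against control (1803 and 1987) they were 283 and 487 with the set term, and left-out libraries gave as few as 1061 higher. In melatonin against siCLOCK (1221 and 1655) they were 328 and 633 with the set term, and left-out libraries gave as few as 619 higher and 1031 lower. Depth limits SNAI2 and CDH1, and the unstranded count limits KRT8, KRT18 and VIM.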
